A study of Homo sapiens with 20 samples.

Results

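An HA antibody (CST_3724s) was used for ChIP-seq of a tagged protein in NCI-H1048 cells, treated with DMSO or for 6 h with AU-15330. The titles of these 2 libraries name the HA tag but not the protein that carries it. They were chosen for that reason, and the tagged protein is called the unnamed HA protein throughout. On chromosomes 1 to 22 and X the DMSO list holds 18922 called regions and the AU-15330 list 1326, so that these lists account for 20248 of the 562708 regions in the 20 lists of the series. A DMSO region overlapped by at least 1 base of the AU-15330 list was called kept and any other lost, and AU-15330 regions that overlap none of the DMSO list were called gained.

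NCI-H1048 is an established line of the tuft cell-like subtype of small cell lung cancer (SCLC-P). The series asks where POU2F factors and their coactivators bind before and after loss of SMARCA2 and SMARCA4, the ATPases of the mSWI/SNF chromatin remodelling complexes, which AU-15330, a PROTAC, sends for degradation. AU-15330 was dissolved in DMSO and given at 1 µM, and the controls received DMSO. Each condition is 1 library, so no test between the treatments was possible, and the bounds in parentheses after a share are its exact 95% binomial interval, which covers counting error only. The methods describe HA-tagged POU2F proteins as lentiviral dTAG fusions in Cas9-expressing cells whose own gene was knocked out. The titles of the pair studied here carry no such mark, and legends for this line name more than one HA-tagged protein without tying either to these libraries, so the construct and the cells were not assigned. For comparison, the HA-POU2F3 and POU2F3 antibody pairs of NCI-H1048 and the HA-POU2AF2 pair of NCI-H526, another SCLC-P line, were also used, each with its own DMSO library.

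Tuft cells depend on POU2F3, a transcription factor of the POU domain family. POU factors read a short DNA element, the octamer, and small coactivators without a DNA-binding domain of their own, POU2AF1, POU2AF2 and POU2AF3, dock onto the factor at the octamer. Octamers also lie in the distal promoter elements of small nuclear RNA genes, where the broadly expressed POU2F1 is known to act with the snRNA activating protein complex.

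The sequences at which the HA signal was lost or kept are shown for 4 kinds of site, from GRCh38/hg38, on the plus strand, with the octamer core TTTGCAT in capitals on either strand (its reverse complement is ATGCAAA). In the first set, the DMSO regions at the tuft cell genes PTGS1 and POU2F3 and a region in an intron of EML1 were lost, and those at GFI1B and POU2AF2 were kept. The windows are chr9:122376279-122376365, chr11:120255394-120255480, chr14:99744616-99744702, chr9:132977569-132977655 and chr11:111273892-111273978. The lost windows of this set hold the full octamer, ATTTGCAT or its reverse complement ATGCAAAT, and the kept windows only the core. Other regions did not follow this split. The kept POU2AF3 region has a full octamer, and the windows at the lost AVIL and ASCL2 regions have only the core. At region centres the full octamer was present in 28.5% of kept and 31.8% of lost regions.

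PTGS1, lost: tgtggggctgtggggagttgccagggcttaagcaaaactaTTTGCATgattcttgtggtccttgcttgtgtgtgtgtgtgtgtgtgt
POU2F3, lost: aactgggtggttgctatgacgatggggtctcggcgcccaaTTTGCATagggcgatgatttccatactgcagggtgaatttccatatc
EML1 intron, lost: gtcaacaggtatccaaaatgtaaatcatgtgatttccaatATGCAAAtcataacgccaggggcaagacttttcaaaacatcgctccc
GFI1B, kept: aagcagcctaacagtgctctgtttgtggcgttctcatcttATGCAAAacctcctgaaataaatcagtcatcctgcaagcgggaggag
POU2AF2, kept: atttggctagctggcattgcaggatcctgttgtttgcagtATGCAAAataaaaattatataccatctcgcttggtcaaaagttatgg

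The second set is a pair of lost regions on different chromosomes, 116 kb downstream of the SPDYE21 start and 369 kb downstream of the IPMK start, both intergenic and both among the 10 strongest of the DMSO list. Their windows at chr7:67392753-67392839 and chr10:57898430-57898516 share 73 of 87 bases without gaps (83.9%).

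SPDYE21 side, lost: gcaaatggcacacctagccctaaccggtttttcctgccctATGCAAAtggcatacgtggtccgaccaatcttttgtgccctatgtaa
IPMK side, lost: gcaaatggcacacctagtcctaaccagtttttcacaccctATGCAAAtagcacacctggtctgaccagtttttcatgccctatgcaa

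The third is the strongest kept region with 4 or more cores, 30.7 kb upstream of TP53BP2. It holds 13 cores in 583 bases, of which chr1:223876525-223876724 shows 9.

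TP53BP2 side, kept: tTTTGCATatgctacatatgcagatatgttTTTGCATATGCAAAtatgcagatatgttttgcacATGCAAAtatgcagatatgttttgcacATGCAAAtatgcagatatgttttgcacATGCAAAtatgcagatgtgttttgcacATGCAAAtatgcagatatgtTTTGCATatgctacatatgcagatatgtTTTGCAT

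The fourth set shows the octamer upstream of small nuclear RNA genes whose regions were kept. These windows at chr1:28648342-28648428, chr15:65304426-65304512 and chr12:6943571-6943657 have their core 218, 211 and 205 bases before the gene start, outside the called HA region in each case.

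RNU11, kept: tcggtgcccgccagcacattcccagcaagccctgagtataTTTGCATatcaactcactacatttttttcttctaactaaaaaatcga
RNU5B-1, kept: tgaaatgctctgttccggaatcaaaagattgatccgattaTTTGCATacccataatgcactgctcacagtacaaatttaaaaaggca
RNU7-1, kept: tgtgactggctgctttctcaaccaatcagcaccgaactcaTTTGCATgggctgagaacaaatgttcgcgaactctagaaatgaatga

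The HA signal was called at far fewer places with AU-15330. Of 18922 DMSO regions 368 were kept, or 1.94% (1.75 to 2.15), and 18554 were lost, which is 98.1% of those compared. Of the 1326 AU-15330 regions 370 lay over a DMSO region and 956 were gained, or 72.1% (69.6 to 74.5). With the 1326 strongest DMSO regions in place of all of them, 10.8% by fold and 13.6% by q-value were kept. Most were thus absent from an AU-15330 list of equal length. Equal length does not equalize the calling limits, so it does not tell whether a missing region lies just under the AU-15330 threshold. Fold here is the deposited enrichment of a region over the background of its own library.

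The AU-15330 list held shorter regions. They had a median length of 178 bases against 289 with DMSO, and 8.45% of them reached a −log10 q of 5 against 24.9%. The shortest called region was 144 bases with AU-15330 and 202 with DMSO, so the lengths are not on the same footing. Median fold was 3.84 with AU-15330 and 3.63 with DMSO, and the highest fold 19.1 and 22.2. Read numbers were not used, but fold and p-value together give an estimated 34.0 M tags for the DMSO and 37.6 M for the AU-15330 library. That estimate is approximate, since the caller averaged these values over each region. From it the lowest fold that could be called was 3.66 with AU-15330 and 3.10 with DMSO for a single position, and 30.7% and 14.5% of the called regions lie below these as averages. Among the 9127 DMSO regions with a fold of at least 3.66, 290 were kept, or 3.18% (2.83 to 3.56).

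Strong regions were kept more often. The kept share was 0.713%, 0.793%, 1.03%, 1.69% and 5.50% from the lowest to the highest quintile of DMSO fold, each an equal part of the list. Among the 100 strongest regions 40 were kept, among ranks 101 to 1000 81 of 900, and among the 13922 weakest regions 128, or 0.919%. Even in the highest quintile, only 208 of 3785 regions were kept. At the kept regions fold was lower with AU-15330 in 236 of 368, with a median ratio of 0.875 and quartiles of 0.708 and 1.12, and only called regions enter this ratio.

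**Figure D1:**
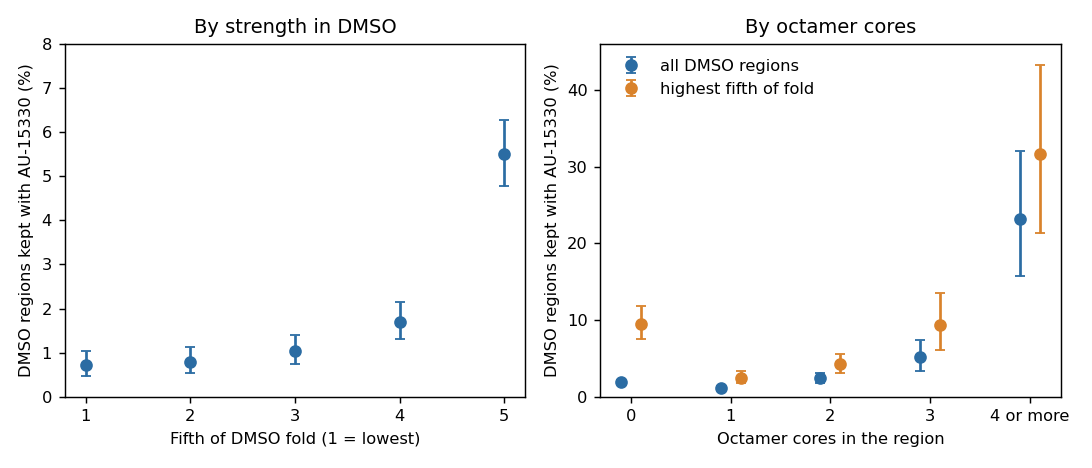
The share of DMSO regions kept with AU-15330 (y axis, percent) is plotted by quintile of DMSO fold (left) and by the number of octamer cores in the region (right, all regions and the highest quintile of fold). Points are shares with exact 95% binomial intervals: the highest quintile stands at 5.50%, and regions with 4 or more cores stand at 23.2% overall and 31.6% in the highest quintile.

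Among the kept regions, small RNA genes stood out. Their list was drawn up after the strongest kept regions had been seen, so its counts describe those regions and support nothing else. It holds 63 genes: U1 and its variants, the other spliceosomal and minor spliceosomal snRNAs and U7 transcribed by RNA polymerase II, snoRNAs with their own promoters, and RNA polymerase III genes. Of 33 DMSO regions within 500 bases of a listed gene start 26 were kept (78.8%, 61.1 to 91.0), against 342 of 18889 elsewhere (1.81%). These 26 include 19 of the 50 strongest kept regions. The shares of 78.8% and 1.81% are not matched for strength. The 26 regions had a median DMSO fold of 8.45 against 3.63 for the whole list. Of the 100 strongest DMSO regions, small RNA genes included, 40 were kept.

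The strongest DMSO region of all was at SNORD3B-2 (a gene for the U3 snoRNA, which guides ribosomal RNA processing), at chr17:19063674-19064016. Its fold was 22.2 with DMSO and 10.4 with AU-15330. The other snoRNA genes with a region behaved alike in being kept: SNORD3D went from 9.13 to 5.95, SNORD118, which encodes U8, from 8.4 to 5.07, and SNORD13 from 6.20 to 3.91. All 4 had a lower fold with AU-15330.

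The other snRNA genes were nearly all bound. Of 13 RNA polymerase II snRNA genes other than U1, 12 had a DMSO region and all 12 were kept. Of the 1769 other annotated snRNA genes 1.41% had a DMSO region, but these include pseudogene copies and are not a like set. All 12 also had a region in the HA-POU2F3 and POU2F3 antibody lists of this line, with DMSO and with AU-15330. RNU11, of the minor spliceosome, had a fold of 9.35 with DMSO and 5.14 with AU-15330, and RNU12 went from 8.51 to 5.91. RNU4ATAC, also of the minor spliceosome, went from 7.85 to 5.95. Every one of these 12 had a lower fold with AU-15330, with a median of 8.39 against 5.79.

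The 5 U5 genes of the list all had a lower fold with AU-15330. RNU5F-1 went from 9.40 to 5.52, RNU5A-1 from 9.36 to 5.88, RNU5D-1 from 8.28 to 5.99, RNU5B-1 from 8.08 to 5.76 and RNU5E-1 from 7.33 to 5.83. RNU7-1, whose RNA trims histone messages, was the least changed of the 12, at 5.06 and 4.58. RNU2-2P stood at 8.72 and 7.42, and the U4 genes RNU4-2 and RNU4-1 at 8.55 and 5.50 with DMSO and 5.37 and 3.70 with AU-15330.

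At U1, which reads the 5′ splice site, 13 of 31 listed genes had a DMSO region and 9 of these were kept. RNVU1-28 went from 12.0 to 6.62, while RNU1-2 was level at 7.66 and 7.79. RNVU1-19, with a fold of 11.2 and rank 6 in the DMSO list, was lost, as were RNVU1-15, RNVU1-21 and RNVU1-26. U1 genes and the U3 genes are near-identical copies, so which copy a read came from is uncertain. RNA polymerase III genes were weaker: RNU6-1 was kept at 4.13 and 4.83, and RMRP (3.57), RNU6-2 (3.45) and RPPH1 (3.36) were lost. RN7SK and the Y RNA genes had no HA region in either list.

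**Figure D2:**
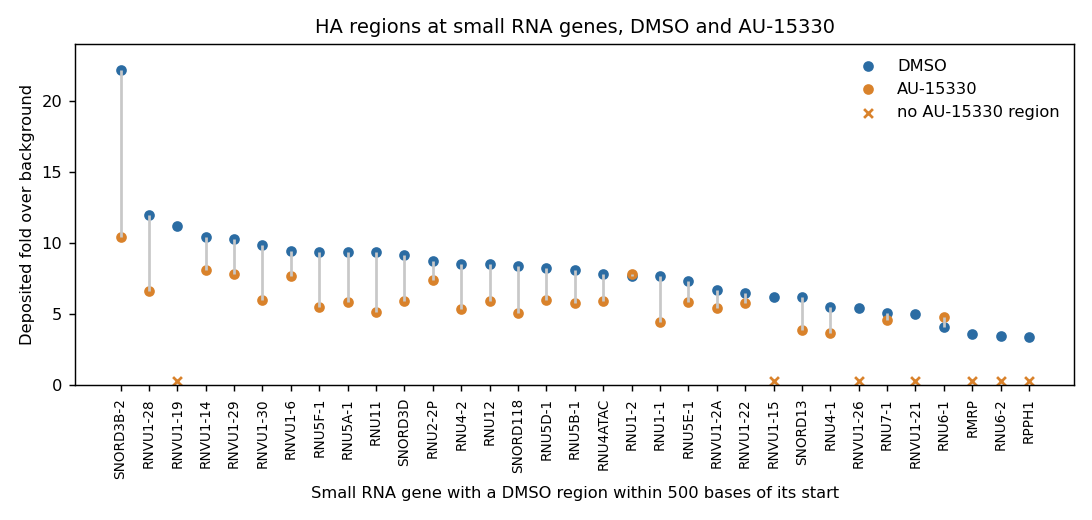
Deposited fold (y axis) at the 33 small RNA genes with a DMSO region (x axis), with DMSO in blue and AU-15330 in orange and a cross where there was no AU-15330 region. The AU-15330 point lies under the DMSO point in all kept genes other than RNU1-2 and RNU6-1.

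At these genes the HA regions mostly lay further downstream of the gene start than those of the POU2F3 lists. At the 26 kept genes the centre of the DMSO region was a median of 183 bases downstream of the start (from 141 upstream to 470 downstream), and downstream in 24. With AU-15330 it was 189 bases downstream. The POU2F3 antibody regions in DMSO had their centre at −30.5 bases and their summit at −164, upstream of the start in all 24 genes with one. HA-POU2F3 regions in DMSO had their centre at −56.0. The unnamed HA centre was further downstream than the POU2F3 antibody centre in 22 of 24 genes and than the HA-POU2F3 centre in 24 of 24. With AU-15330 the POU2F3 antibody centre was at 57.5 and the HA-POU2F3 centre at 47.0 bases, both downstream, and the HA-POU2F3 summit at 85.0, downstream in 20 of 26, while the POU2F3 antibody summit was at −159. The unnamed HA centre was then further downstream in 17 and 23 of 26 genes. The unnamed HA lists have no summits, so centres were compared.

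The octamer was mostly outside the called stretch. Of the 26 kept genes 11 have a core within 300 bases upstream of the start, and 17 have a full octamer or one of the variants ATGCTAAT, ATGTAAAT, ATGCAGAT or ATGCATAT. The core is inside the region in only 2 of the 26 (7.69%), RNU5A-1 being one. At RNU11, RNU5B-1 and RNU7-1, printed above, it lies between 205 and 218 bases before the start. Of the other kept regions, 34 of 76 at protein-coding promoters (44.7%) and 149 of 255 elsewhere (58.4%) hold one.

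Regions with many octamers were also kept more often than most. The kept share was 1.94% of 9384 regions with no core, 1.15% of 6423 with 1, 2.40% of 2498 with 2, 5.15% of 505 with 3 and 23.2% (15.8 to 32.1) of 112 with 4 or more. Regions with 4 or more cores were stronger and longer, with a median fold of 4.89 against 3.41 and a median length of 450 against 266 bases for those with none. Within the highest quintile of fold the share ran from 2.43% with 1 core to 31.6% (21.4 to 43.3) with 4 or more, and it was 9.52% with none. Of the 26 kept small RNA gene regions, 24 hold no core.

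The 26 kept regions with 4 or more cores are spread over the genome. The TP53BP2-side array shown above had a fold of 9.80 with DMSO and 7.90 with AU-15330, at rank 16 of the DMSO list. An intergenic region 57.6 kb upstream of SLC45A1 with 5 cores went from 8.49 to 3.98. A region in an intron of TMEM51 with 5 cores went from 8.46 to 7.25, and one in an intron of RYR1, the calcium release channel gene, with 7 cores from 8.23 to 5.43. In an intron of CDKAL1, a tRNA-modifying enzyme gene, 6 cores went with 7.85 and 5.89. All 26 also had a region in the POU2F3 antibody AU-15330 list, and 23 in the HA-POU2F3 AU-15330 list. Among the 86 lost regions with 4 or more cores these numbers were 66 and 18.

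Repeated sequence was more common among kept regions with up to 3 cores. Of 157 DMSO regions in which at least 20% of the 12-letter words occur more than once, 57 were kept (36.3%, 28.8 to 44.3). With up to 3 cores, 15.5% of kept and 0.476% of lost regions were of this kind, and with 4 or more cores 15.4% and 14.0%. The GGAAT satellite repeat, or a place within 1 Mb of a sequence gap of at least 1 Mb, held 88 DMSO regions. Of these 33 were kept (37.5%). The sets overlap: 128 of the 157 are neither at a listed small RNA gene nor among the 88, and 31 of those were kept. Reads in repeats or near gaps are hard to place, and the part this plays in the kept regions was not tested. Outside small RNA genes, arrays of 4 or more cores, and repeats and gaps by these definitions, 256 of 18578 regions were kept, or 1.38% (1.22 to 1.56). Sequence duplicated between places in the genome was not screened for, so this remainder may still hold some. Fold was not lower at every strong kept region. At chr13:18211874-18212258, beside the lncRNA gene FAM230C and at rank 2 of the DMSO list, it was 16.3 with DMSO and 19.1 with AU-15330, and beside the pseudogene DUX4L26 on chromosome 3 it was 10.2 and 11.7.

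**Figure D3:**
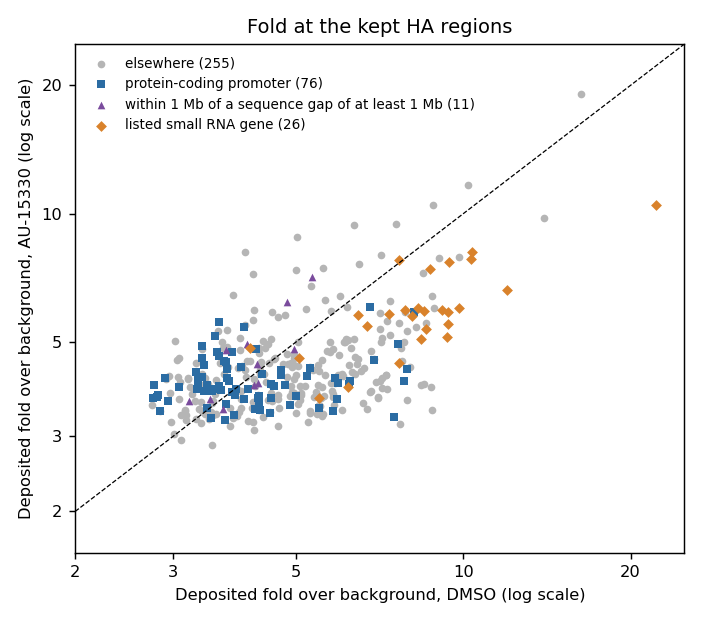
Deposited fold of the 368 kept regions with DMSO (x axis, log scale) and with AU-15330 (y axis, log scale), by kind of site. Points under the dashed line of equal fold number 236, and 24 of the 26 small RNA gene points are among them.

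The octamer core marked the whole DMSO list. It was present in 43.1% of 200-base windows at region centres against 5.59% of windows 2 kb away, a ratio of 7.71, and in 4.15% of 19618 protein-coding promoters of GENCODE (250 bases before to 50 after the start). It rose from 21.1% in the lowest to 71.1% in the highest quintile of fold, while the share of regions at protein-coding promoters fell from 24.4% to 8.01%. The full octamer ATTTGCAT, in 31.8% of windows, had a higher ratio than the core, at 16.4. Among words of 8 letters it was not the highest by ratio. Some GC-rich words exceeded it in far fewer windows, led by CGCGCGGC at 33.4 in 1.42%. Other motifs were in far fewer windows. The CTCF consensus was in 0.587%, 3.07 times its flank share. The ETS site CCGGAAGT was in 0.708%, 9.87 times its flank share, the Sp/KLF box GGGCGGG in 6.49% (6.04 times) and the RUNX site AACCACA in 7.30% (2.09 times). The AP-1 site TGACTCA, the E-box CAGCTG, the FOX site TGTTTAC and the CCAAT box GCCAATC or GCCAATG were within 1.07 to 1.24 times their flanks.

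The core marked kept and lost regions but not clearly gained ones, whose ratio has an interval of 0.964 to 1.59. The ratio of region to flank was 6.70 for kept regions (38.3% against 5.72%), 7.73 for lost regions and 1.25 for gained regions (6.49% against 5.20%). Within the highest quintile, 3.97% of regions with a core in the central window were kept and 9.25% of those without. By number of cores in the whole region, those with 1 were the least often kept.

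**Figure D4:**
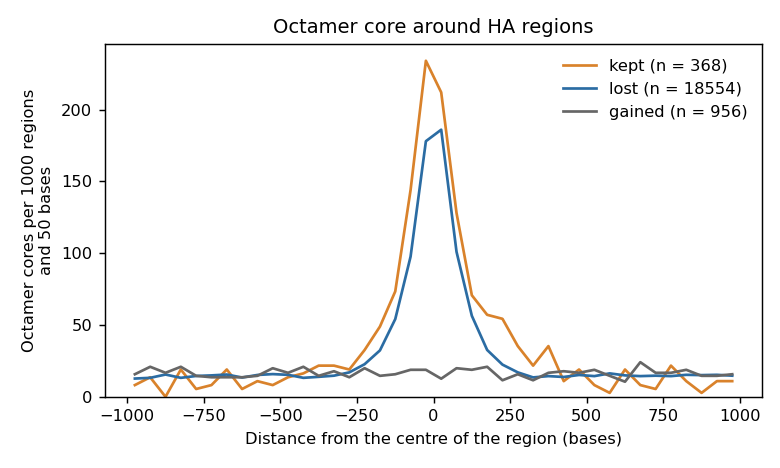
Octamer cores per 1000 regions in 50-base bins (y axis) by distance from the region's centre (x axis, bases) for kept, lost and gained regions. The central bins reach 234 for kept and 186 for lost regions, and gained regions have 12.6 and 18.8 in the same bins.

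By position, 45.9% of DMSO regions were intergenic, 35.3% intronic, 2.12% exonic and 16.8% within 1 kb of a protein-coding start. The kept share was 2.56% at promoters, 2.49% in exons, 1.26% in introns and 2.22% between genes. Promoters were the weaker sites, and in the highest quintile of fold 30 of 303 promoter regions were kept (9.90%) against 178 of 3482 others (5.11%). Gained regions were rarely at promoters (4.39%) and lay a median of 69.0 kb from the nearest start.

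The kept promoter of highest fold away from small RNA genes was that of CBFA2T3, a transcriptional corepressor gene, at chr16:88941905-88942377, with a fold of 8.16 with DMSO and 5.86 with AU-15330. EHD1, an endocytic recycling gene, followed at 7.91 and 4.31, then GFI1B. PRDX5, a peroxiredoxin gene, with 4 cores, went from 7.5 to 3.34. The promoter of the histone gene H2BC18 stood at 6.80 and 6.03, that of POLR2A, the largest subunit of RNA polymerase II, at 6.26 and 4.05, and that of PAX6, an eye and endocrine factor gene, at 6.23 and 3.98. Against these, the promoters of RBBP8NL (10.8) and of its paralog RBBP8 (10.5), a DNA end resection factor gene, were among the 10 strongest lost regions. Neither holds an octamer core.

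At genes, HA regions were counted in the gene body and 10 kb upstream. Of 19962 protein-coding genes 7179 had a DMSO region (36.0%) and 691 an AU-15330 region (3.46%). Of the 7179, 6948 lost every region (96.8%). Of 43 tuft cell genes 30 had a DMSO region (69.8%) and 3 an AU-15330 region, and 28 of the 30 lost every region. The neuroendocrine list had 5 of 18, the plasma cell list 3 of 13, the T cell list 2 of 12, and the hepatocyte and myeloid lists 1 of 12 each. Other lists reached the tuft share: the epithelial list had 9 of 13 (69.2%), the housekeeping list 11 of 16 (68.8%) and the AP-1 list 8 of 11 (72.7%), so the share is not particular to tuft genes. The lists differ in gene length, with medians of 29.8 kb for the tuft lists and 27.5 kb for all genes, but 7.53 kb for the myeloid list.

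The 3 POU2F factor genes and their 3 coactivator genes each had a DMSO region, as did 36.0% of all protein-coding genes. They are long genes, with a median of 93.3 kb against 27.5 kb for all. POU2F3 itself had 4, with folds of 4.81, 4.79, 4.53 and 4.02 and up to 2 cores each, and all were lost. The neighbouring coactivator genes on chromosome 11 each kept 1 region: in POU2AF2 the intronic region at chr11:111273668-111274123 went from 6.39 to 4.60 while its promoter region (3.26) was lost, and in POU2AF3 the intronic region stood at 3.30 in both lists while 2 weaker regions (3.27 and 3.12) were lost. All 5 regions of POU2AF1, led by one of 6.30, were lost. So were the 4 regions of POU2F1 (strongest 3.91) and the 1 of POU2F2 (6.66). Of all DMSO regions 98.1% were lost.

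Of the tuft transcription factor genes, GFI1B, a zinc finger repressor, had 4 DMSO regions of which 1 was kept, at chr9:132977417-132977840, 1.02 kb upstream of a start. Its fold was 7.80 with DMSO and 4.04 with AU-15330. The 2 regions of ASCL2, a bHLH factor gene, were lost at 3.63 and 3.28, and so was the exonic region of SPIB (4.48), which encodes an ETS factor. Of the 6 bound genes of this list, 5 lost every region, against 96.8% of all bound protein-coding genes.

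The 4 bound genes of eicosanoid synthesis and the 6 of taste signalling lost every DMSO region, as did 96.8% of all bound protein-coding genes. PTGS1, which encodes cyclooxygenase 1, had the strongest region of any tuft gene listed, at chr9:122376187-122376581 with a fold of 8.58, and another of 4.27, and both were lost. Other eicosanoid genes, ALOX5 (5.72), PLA2G4A (4.27) and TBXAS1 (4.20), lost their DMSO regions too, and TBXAS1, the thromboxane synthase gene, had a gained region of 3.63 in an intron. Of the taste signalling genes, GNAT3, which encodes gustducin, lost 3 regions led by one of 5.48, and ITPR3 (5.07), the succinate receptor gene SUCNR1 (4.47) and RGS13 (4.21) lost theirs. None of the 10 genes of that list had an AU-15330 region.

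Among the other tuft markers, the actin-bundling gene ESPN had an exonic region of 8.48 and the advillin gene AVIL a promoter region of 6.32 with a core, and neither was kept. Nor were regions at the signalling genes FYB1 (6.24), INPP5D (5.28), SH2D7 (5.09) and MATK (4.59), or at the serotonin receptor gene HTR3E (5.30). IRAG2 was the exception. Its intronic region at chr12:25058617-25059130, with 2 cores, went from 5.88 to 4.01, and its other region (5.19) was lost. Of the 14 bound genes of this list 13 lost every region (92.9%), against 96.8% of all bound protein-coding genes.

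**Figure D5:**
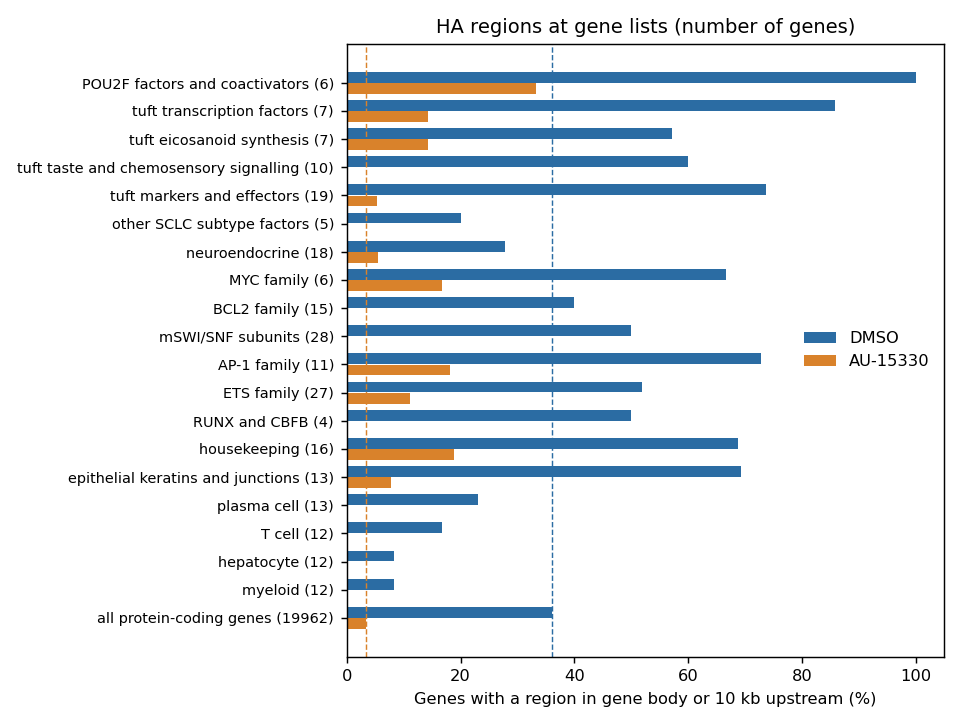
The share of genes in each list with a region in the gene body or 10 kb upstream (x axis, percent) with DMSO (blue) and AU-15330 (orange), with dashed lines at 36.0% and 3.46% for all protein-coding genes. The POU2F list reaches 100% and the tuft transcription factor list 85.7% with DMSO, against 33.3% and 14.3% with AU-15330. Genes of the POU2F list have a median length of 93.3 kb, against 27.5 kb for all genes.

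The genes with most DMSO regions were long ones: LRP1B with 30, DLG2 with 27 and HDAC9, a histone deacetylase gene, with 24, of which only HDAC9 kept any, namely 1. CDKAL1 kept 3 of 19 and ZFHX3, a zinc finger factor gene, 2 of 19. A count of regions per gene grows with its length, so these counts are not comparable between genes.

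In other lists AU-15330 regions lay at 3 of 27 ETS genes (11.1%), 2 of 11 AP-1 genes (18.2%) and 3 of 16 housekeeping genes (18.8%), against 3.46% of all protein-coding genes. The ETS list had 14 of 27 genes with a DMSO region, led by ETV6 (8.09), ETV4 (7.43) and EHF (6.21), and none kept a region. The 14 bound mSWI/SNF subunit genes, among them ARID1B (5.03) and SMARCB1 (4.40), lost every region, and so did both bound RUNX genes, RUNX2 (6.22) and RUNX1 (5.14, 12 regions), and the 6 bound BCL2 family genes, led by BCL2 (5.82). These counts are near the 96.8% of all bound genes that lost every region. In the AP-1 list 8 of 11 genes were bound. FOS (5.13) and JUN (4.20) lost their promoter regions, ATF3 kept its promoter region at 4.51 and 3.68, and JUND kept one at 3.83 and 3.82. Of the housekeeping genes, EEF1A1 (3.63 and 4.64) and POLR2A kept their promoter region, and GAPDH (5.64) and ACTB (4.79) lost theirs.

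Gained regions had high q-values but not low folds, with a median −log10 q of 1.95 against 3.10 for lost regions and a median fold of 3.78 against 3.62. None of the 5 strongest by fold holds an octamer core. Only 13 of 956 reached a −log10 q of 5 (1.36%), the strongest had a fold of 7.27 on chromosome 21, followed by 7.26 in an intron of ANKRD36, and with that threshold on the AU-15330 list the gained share was 11.6% of 112 regions in place of 72.1%. A gained region lay in the window of 2.4% of protein-coding genes. Of the listed genes these were ATF3 (3.54), CALCA (3.67), ERG (3.67), ETV5 (3.93), GRHL2 (4.26), MNT (3.54), SPI1 (3.42), TBXAS1 (3.63) and TFRC (3.68). Of the gained regions 9.41% had a region in the POU2F3 antibody AU-15330 list and 4.60% in that of HA-POU2F3.

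Compared with the POU2F3 lists of the same line, the unnamed HA protein shared its strong sites and lost more of them. Of its DMSO regions 58.4% had a POU2F3 antibody region, 42.8% an HA-POU2F3 region and 40.6% an HA-POU2AF2 region of NCI-H526, and in the 1000 strongest these shares were 97.3%, 94.5% and 82.4%. In the other direction, 29.2%, 40.3% and 22.4% of those lists had an unnamed HA region. The lists differ in length and depth, and an overlap does not tell which protein carries the tag.

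At the 11057 regions shared with the POU2F3 antibody, the HA signal was kept in 2.86% and the POU2F3 signal in 62.5%, and at 6602 (59.7%) HA was lost where POU2F3 was kept. The opposite, HA kept where POU2F3 was lost, was found at 8. At the 8092 shared with HA-POU2F3 the kept shares were 3.97% and 13.3%, and both were lost at 85.9%. Taken alone, the pairs kept 1.94% (unnamed HA), 7.72% (HA-POU2F3), 44.6% (POU2F3 antibody) and 1.25% (HA-POU2AF2) of their DMSO regions. With 1 library each, these differences between pairs could not be tested, and antibody, cells and depth differ with them. The unnamed HA lists carry no summit, unlike those of the other pairs, so their calling options may differ too. A treatment time of 6 h is labelled for the HA pairs of NCI-H1048 only, but a legend of the study gives 6 h for POU2F3 ChIP-seq of this line too.

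The 7159 DMSO regions that both POU2F3 lists hold had a median fold of 4.17, a core in 65.1% and a kept share of 4.09%. The 6932 that neither holds (36.6%) had a median fold of 3.33, a core in 22% and a kept share of 0.346%. Of the kept regions 94.3% had a POU2F3 antibody AU-15330 region, against 44.6% of the lost ones.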

How the data were processed

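ChIP-seq region lists of 2 NCI-H1048 libraries were analysed, with 6 lists of other pairs for comparison and all 20 for the total. Reads went through Trimmomatic 0.39, BWA (GRCh38/hg38), SAMtools and Picard, per the submitters' processing notes. The authors called regions with MACS2 at a q-value of 0.05 and removed blacklisted regions, and name no control library for the calls. The calling options behind these 2 lists, which carry no summit, are not given in the sources used here. The deposited values are a score, the fold enrichment over background, and −log10 p and −log10 q per region, as the authors' caller wrote them. Read counts and depth are unknown; tags were estimated from fold and p for an assumed genome of 2.7 Gb. Regions on sequences other than chromosomes 1 to 22 and X were left out, except in the check on all sequences.

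Overlaps (1 base), motif searches in 200-base windows against windows 2 kb away, and gene windows (gene body and 10 kb upstream, GENCODE 44) were computed with Python 3.11.15, numpy 2.4.6, pandas 2.3.3 and scipy 1.17.1, tested on simulated data, and drawn with matplotlib 3.10.9. Promoters are within 1 kb of a protein-coding start. Intervals are exact 95% binomial intervals of counting error only. Named were the genes the study itself names for the program, up to 15 further tuft genes and up to 4 genes of each other list by strongest DMSO fold, every listed gene with a kept or gained region, the 10 strongest DMSO, kept and lost and 5 strongest gained regions, and the 10 genes with most DMSO regions, of which the text gives a part. The kept promoters, the regions with 4 or more cores and the small RNA genes were named after their values were seen. The members and lists were chosen with earlier results of these data known. The small RNA gene list, the counts of octamers and repeated words per region, the tag estimate and the fold-matched shares were added after values were seen.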

Additional observations from a re-analysis of the deposited data

Results flagged for a closer look

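Of the AU-15330 regions in the file, 12.5% (10.9 to 14.2) lie on sequences other than chromosomes 1 to 22 and X, against 0.864% of the DMSO regions. They enter only the check on all sequences and stand out because their share is above that of the DMSO control.

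The unnamed HA list fell from 18922 to 1326 regions with AU-15330 while the POU2F3 antibody list of the same line rose from 38034 to 51406. The pairs moved in opposite directions, with 1 library in each condition, and the difference was not tested.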

How the results depend on the processing

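No paired analysis was possible because the labels give no replicate numbers and each condition is 1 library. Of 49 alternatives over 15 results, 9 left the value within its interval or, for a count of genes, within 1.5 times, and 40 moved it further. The octamer ratio of gained regions, 1.25 with an interval that holds 1, fell below 1 over whole regions, at 0.967. The kept share of 1.94% became 5.65% for DMSO regions with −log10 q of at least 5, 0.523% with that limit on the AU-15330 list, 1.02% with 50% of the region covered, 2.25% within 1 kb, 10.8% and 13.6% for lists of the same number by fold and by q, and 2.47% on all sequences. With settings added after seeing the data it was 1.64% without small RNA genes, GGAAT repeat and gaps, and 3.18% and 3.71% for DMSO folds of at least 3.66 and 3.84. The gained share of 72.1% became 11.6% at −log10 q of at least 5, 69.5% within 1 kb and 68.4% on all sequences. The kept share in the highest quintile exceeded the lowest by 6.08 percentage points by q and 5.6 by length, against 4.78 by fold. Promoter shares within 2.5 kb were 19.2% (DMSO), 19.1% (lost) and 8.37% (gained), and with the starts of all genes 22%, 21.7%, 8.05% and, for kept regions, 37.8%. The octamer ratio was 5.77 (DMSO), 4.21 (kept) and 5.81 (lost) over whole regions, 7.99, 8.55 and 7.98 with flanks 10 kb away, and 16.4, 17 and 16.4 for the full octamer, and for gained regions 0.967, 1.1 and 1.74 in the same order. Sharing with the POU2F3 antibody and HA-POU2F3 lists was 52.8% and 37.5% at 50% cover and 88.1% and 73.7% at −log10 q of at least 5. Tuft genes with a DMSO region numbered 15 within 2 kb of a start and 19 at that q, and with an AU-15330 region 1 and 0. The causes were not tested. Without read counts or replicate libraries, a region missing from the AU-15330 list may lie just under its threshold.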
